A study of Mus musculus with 3 samples.

Results

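The library of mice that received busulfan followed by AOS (B + A 10) was set against the library of mice that received vehicle alone (AOS 0), to describe which genes still differed from the untreated intestine after AOS. Reads were counted as unique molecular identifiers (UMIs), each standing for 1 captured RNA molecule. Cells whose summed alpha-defensin level reached 1500 UMIs per 10000 were left out, since alpha-defensins are products of Paneth cells, and UMIs were then summed per gene and library. This left 3997 cells of AOS 0 and 5161 cells of B + A 10, 9158 of the 12653 cells of the series. Of 13891 listed genes, 8580 had 300 or more UMIs in the libraries compared and were kept.

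The small intestine of male ICR mice, an outbred strain, was measured by droplet single-cell RNA sequencing in 3 groups. AOS 0 mice were 3 weeks old and had water as the vehicle by oral gavage for 2 weeks and no busulfan. B + A 10 mice of the same age had 1 injection of busulfan at 40 mg/kg and then AOS at 10 mg/kg by gavage over the same time, and B + A 0 mice had the same busulfan and vehicle in place of AOS. Cells of 6 mice of a group went together into 1 library, so a difference between libraries is also a difference between sets of 6 outbred mice and between single runs, which cannot be told apart from the treatment. No test was possible with 1 library a side, and the 95% intervals in parentheses cover counting error only. The source name field calls the B + A 0 library AOS10 and the B + A 10 library B+A0. The groups follow the titles, as do the treatment field and the column names. If the source names were right, the library described here as B + A 10 would be busulfan alone. The library described as B + A 0 would then be AOS without busulfan, and statements on both busulfan libraries would not hold.

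Busulfan is an alkylating drug that crosslinks DNA and is cleared mainly by conjugation to glutathione, and AOS are short chains of alginate, a polysaccharide of brown algae. The lining of the small intestine is renewed from stem cells at the crypt base, whose dividing daughters become absorptive enterocytes or secretory cells (goblet, Paneth, enteroendocrine and tuft cells) while T lymphocytes sit between them. Drugs that damage DNA strike the dividing crypt cells first.

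The cells used held 32704300 UMIs in AOS 0 and 20754401 in B + A 10, with medians of 7294 and 3455 UMIs per cell. Epithelial markers were present in both libraries, T cell markers summed to 831.5 and 1612 UMIs per 1000000 UMIs of the library (UPM), and the few markers of B cells, fibroblasts, macrophages and endothelium that were listed summed to at most 4.34 UPM each in either library. Clusters of cells were given a class from fixed markers. The enterocyte-like class had 1462 cells of AOS 0 and 2062 of B + A 10, and the crypt-like class 1304 and 1459. The goblet-like class had 710 and 1010, and the T cell-like class 97 and 155. As a share of the cells used, the crypt-like class was smaller in B + A 10 (28.3%) than in AOS 0 (32.6%). The shares of the enterocyte-like, goblet-like and T cell-like classes were larger in B + A 10. The largest cluster of the crypt-like class in AOS 0 was led by Hist1h2ao and Top2a (572 cells against 381 in B + A 10). In B + A 10 it was one led by Olfm4 and Lgr5 (488 cells against 183 in AOS 0). These clusters had medians of 7869 and 4237 UMIs per cell over all libraries, and the part of depth in their shares was not tested. The crypt-like class also held a cluster led by Reg4 and Ccl9, with 177 cells of AOS 0 and 136 of B + A 10.

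Most genes lay close to their untreated level. The ratio of B + A 10 to AOS 0 had a median of 0.947 over the genes kept, with quartiles of 0.845 and 1.07. At least 1.5-fold higher were 211 genes (2.46%) and at least 1.5-fold lower 186 (2.17%), together 4.63%. These percentages are the background for the counts in every gene list over all cells. "Higher" and "lower" for a list member mean this 1.5-fold. Only 47 of the higher and 13 of the lower genes reached 2-fold. A gene with just over 300 UMIs had a counting interval from about 0.788 to 1.26 times its ratio. The counting interval left out 1 for all 397 genes. The limits of 300 UMIs and 1.5-fold fix this in advance, so it is no support for these genes. The interval takes each UMI as independent, which does not hold where a single cell supplies many UMIs of a gene, as for haemoglobin and some hormone genes below. With the median ratio set to 1, the split was 295 higher and 103 lower. For counts within a class the background is another. Of all genes counted in the enterocyte-like, crypt-like and goblet-like classes, 4.11%, 3.25% and 4.26% were at least 1.5-fold higher. At least 1.5-fold lower were 3.00%, 4.04% and 4.06%, in that order.

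**Figure D1:**
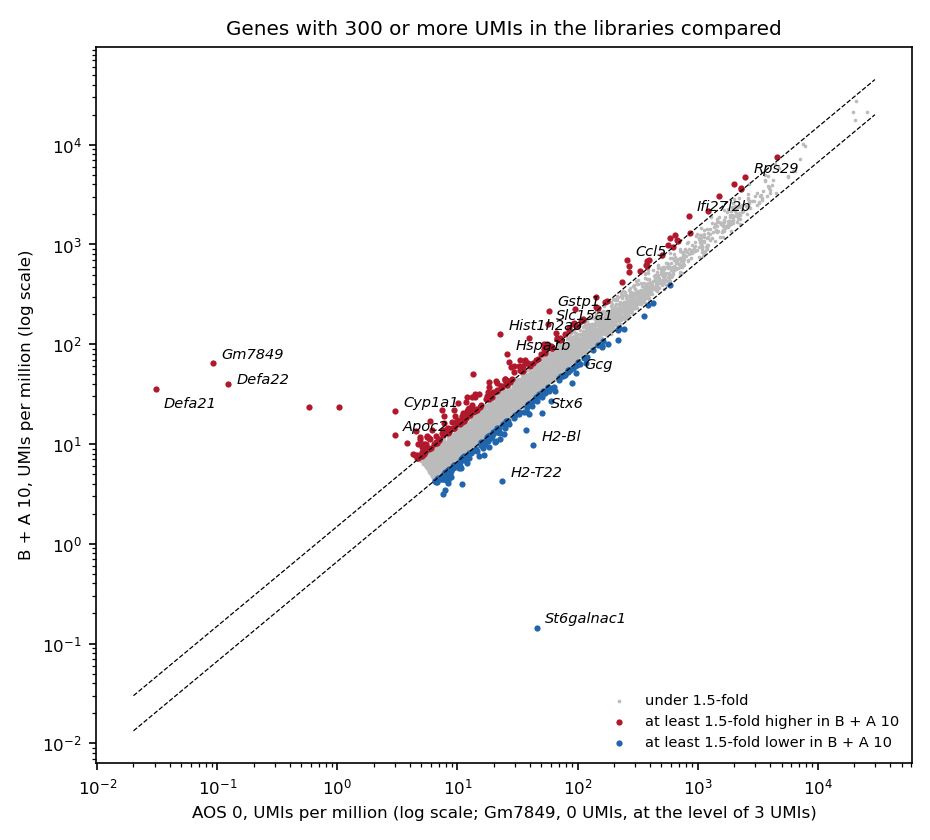
Level of each of the 8580 genes in AOS 0 (horizontal) and in B + A 10 (vertical), in UMIs per 1000000 on log axes. Dashed lines mark 1.5-fold, the 211 genes above are red and the 186 below are blue, and St6galnac1, Defa21, Defa22 and Gm7849 stand far from the diagonal.

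The library with busulfan alone (B + A 0) shows which of these differences were there without AOS. Of the 211 genes at least 1.5-fold higher in B + A 10, 50 were also at least 1.5-fold higher in B + A 0, and of the 186 lower genes 38 were also at least 1.5-fold lower there. Both ratios are taken against AOS 0, so that its own composition and errors enter both, and the counts are no independent support of either. Among the genes kept, 0.781% were at least 1.5-fold higher and 0.793% at least 1.5-fold lower in B + A 0. Where 3 levels of a gene are given together, they are in UPM, first for AOS 0, then for busulfan alone and last for B + A 10.

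**Figure D2:**
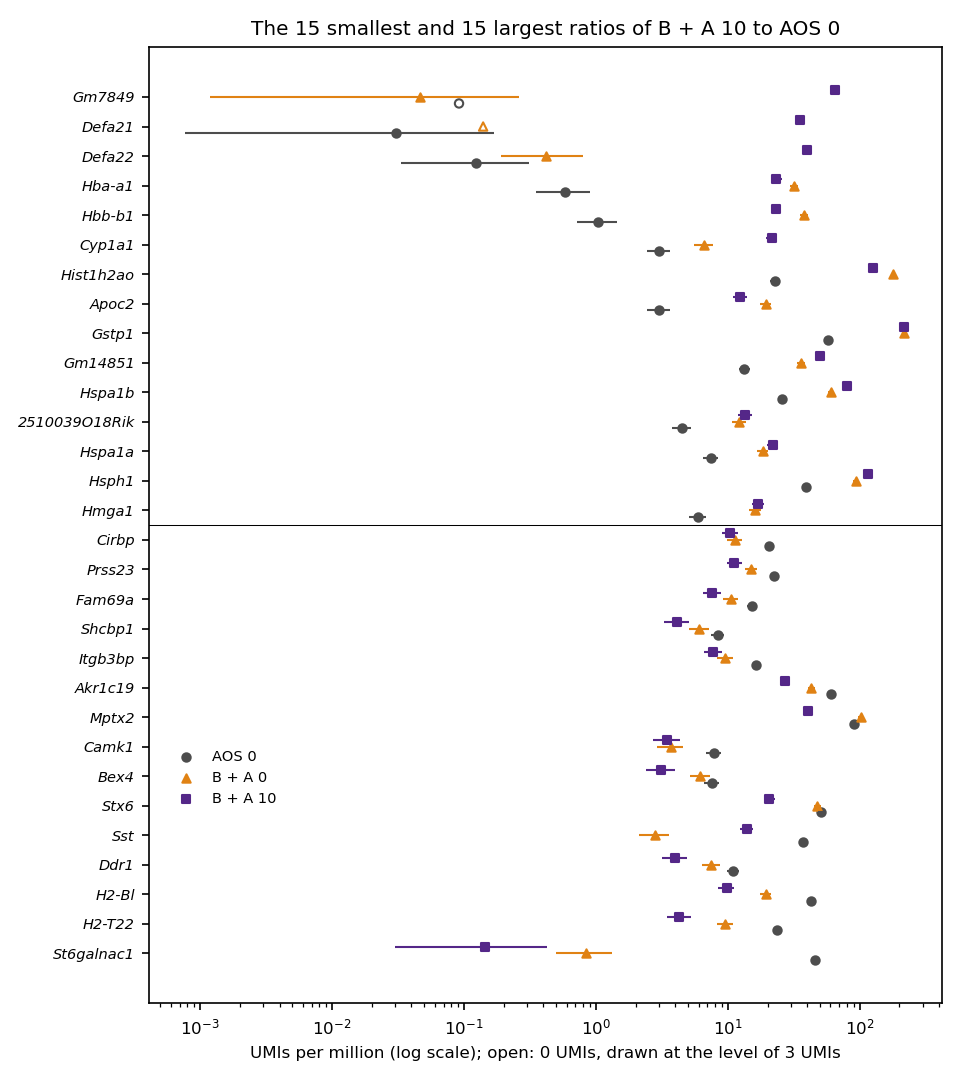
UMIs per 1000000 (log axis) in the 3 libraries for the 15 smallest and 15 largest ratios of B + A 10 to AOS 0, with 95% Poisson intervals as lines and open marks for 0 UMIs, drawn at the level of 3 UMIs. For Gstp1 and Hist1h2ao the B + A 0 mark lies with or beyond B + A 10, and for Stx6, Mptx2, Defa21 and Defa22 it lies near AOS 0.

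The lowest ratio was that of St6galnac1, which encodes a sialyltransferase that caps mucin sugars (chromosome 11, 116765025 to 116775507, GRCm38). It had 1500, 18 and 3 UMIs, or 45.9, 0.838 and 0.145 UPM, so that both busulfan libraries were near 0. The ratio of B + A 10 to AOS 0 was 0.00315 (0.000649 to 0.00923), or 317-fold lower (108 to 1540). The gene was seen in 683 cells of AOS 0 and 3 cells of B + A 10. In AOS 0 it was not confined to goblet cells, with 59.7 UMIs per 1000000 UMIs of the class in the enterocyte-like class, 37.1 in the crypt-like class and 27.4 in the goblet-like class, and all of these classes were near 0 in B + A 10 (604 UMIs against 0 in the enterocyte-like class). After each cell was thinned to 1000 UMIs, 3.53% (2.98% to 4.15%) of AOS 0 cells and 0.0388% (0.00469% to 0.140%) of B + A 10 cells had a UMI.

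The rest of the mucin glycosylation genes were within 1.5-fold. Of 20 members kept, St6galnac1 was the only one past 1.5-fold, and the median ratio was 1.03 beside 0.947 over all genes. Fut2, which adds fucose, was at 14.8, 22.2 and 20.7, and C1galt1, which builds the core 1 structure, was at 13.1, 11 and 9.44. None of 15 goblet mucus genes passed 1.5-fold in either direction over all cells. Within the enterocyte-like class, which should lack them, 8 of 12 were higher with a median ratio of 1.77, while in the goblet-like class none of 14 was higher and 1 was lower. The part of free RNA in this was not tested. Tff3, a trefoil peptide of mucus, was at 20973, 29346 and 27561, with a ratio of 1.31 (1.31 to 1.32). Agr2, the disulfide isomerase that goblet cells need to fold Muc2, was at 4513, 5192 and 3283, with a ratio of 0.727 (0.721 to 0.734).

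Alpha-defensins, the peptides Paneth cells store in granules, are set apart from the other lists, since their sum decided which cells were left out. Of 20 genes listed 10 were kept, of which 7 were higher and none lower, and Defa21 and Defa22 reached the limit of 300 UMIs through B + A 10 alone. Defa21 (chromosome 8, 21025545 to 21026516) had 1, 0 and 737 UMIs in the 3 libraries, a ratio of 1161 (208 to 45932). Defa22 (chromosome 8, 21162277 to 21163249) had 4, 9 and 825 UMIs, and Gm7849, a gene of the same region (21455445 to 21456560), had 0, 1 and 1355. Against a limit of 3 UMIs in AOS 0, Gm7849 was at least 712-fold higher in B + A 10. These genes were therefore seen almost only in B + A 10.

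Other defensins were higher in both busulfan libraries. Defa5 was at 12.02, 32.6 and 29.5, Defa30 at 269, 528 and 532, and Gm14851, next to the defensins on chromosome 8, at 13.4, 35.7 and 50.3. The abundant Defa24 was at 3840, 5878 and 4853, a ratio of 1.26 (1.25 to 1.27). Levels of Defa21 were alike in classes that should lack it, with 37.1 UMIs per 1000000 in the enterocyte-like, 35.6 in the crypt-like and 28.8 in the goblet-like class of B + A 10. In the cells left out, Defa21 stood at 1.18 UMIs per 1000000 in AOS 0 and 5618 in B + A 10. How much of the defensin signal in the cells used is free RNA of those cells was not tested. Alpha-defensin genes are near copies of each other, and the authors' counting could split reads between them.

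Among Paneth antimicrobial genes besides defensins, the median ratio was 1.01. Mptx2, a pentraxin of Paneth cells, was at 90.3, 102 and 40.5 (ratio 0.449, 0.415 to 0.485), and Mmp7, the protease that activates alpha-defensins, at 119, 135 and 65.2 (ratio 0.550, 0.516 to 0.585). B + A 0 lay above AOS 0 for both. Mptx2 was also lower in the defensin-rich cells left out, at 21600, 12960 and 6404 UMIs per 1000000 of those cells. Of 8 members kept, these 2 were lower and Clps, pancreatic colipase, was higher at 53.2, 105 and 91.8. The log2 ratio of Clps, 0.79, reversed to −0.16 when no cell was left out. Reg4, a lectin of secretory cells, was at 358, 316 and 192, with 255 against 95.4 in the crypt-like class of AOS 0 and B + A 10 and 1430.0 against 777.9 in the goblet-like class. The crypt-like class holds a cluster that is itself led by Reg4, and the part of its share in this was not tested. Reg1 was at 625, 714 and 948, and Reg3b and Reg3g, the bactericidal lectins of the villus, had ratios of 0.831 and 0.867.

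A run of adjacent class I genes on chromosome 17 was lower, but not all class I genes were. H2-T22 (36037128 to 36042747) was at 23.6, 9.59 and 4.29 with a ratio of 0.182 (0.144 to 0.227), and H2-Bl (36080115 to 36084223) at 42.9, 19.5 and 9.78 with a ratio of 0.228 (0.196 to 0.264). Their neighbour H2-T23, which encodes the nonclassical class I molecule Qa-1 (36029773 to 36032855), was at 179, 118 and 101 with a ratio of 0.567 (0.539 to 0.596). In each case B + A 0 lay between the other libraries. Ddr1, a collagen receptor kinase on the same chromosome (35681567 to 35704621), was at 10.9, 7.50 and 3.95. H2-T22 was lower to a like degree in the enterocyte-like (0.191), crypt-like (0.177) and goblet-like (0.158) classes. In the antigen presentation list, which does not hold H2-T22, H2-Bl and H2-T23 were the 2 of 25 genes that were lower and none was higher, with a median ratio of 0.892. Cd74, the invariant chain of class II, was at 1024, 616 and 753. Class I genes of this region are close relatives, so the split of reads between them is uncertain.

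Heat shock genes were higher in both busulfan libraries. These genes encode chaperones that refold damaged proteins, and heat shock factor switches many of them on through inverted GAA repeats in their promoters. Of 12 members kept, 4 were at least 1.5-fold higher and none was lower, with a median ratio of 1.28. Hspa1b, an inducible Hsp70, was at 25.9, 60.9 and 80.2 (ratio 3.10, 2.85 to 3.37), and its near copy Hspa1a at 7.43, 18.4 and 21.9. Hsph1, the exchange factor of Hsp70, was at 39.4, 93.0 and 115 (ratio 2.91, 2.72 to 3.12), and Hspa8, the constitutive Hsc70, at 644, 1129 and 1239.7 (ratio 1.92, 1.89 to 1.96). B + A 10 was the highest of the libraries for all 4.

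The rest of the heat shock list ranged from below 1 to just under 1.5-fold. Dnajb1 and Dnaja1, cochaperones of Hsp70, had ratios of 1.49 and 1.36. The mitochondrial pair Hspd1 and Hspe1 had levels of 449, 399 and 350 and of 1058, 1133 and 1052, in that order, with ratios of 0.779 (0.758 to 0.802) and 0.995 (0.978 to 1.01). Hspa1b was higher in the enterocyte-like class (19.4 against 79.2, ratio 4.09), in the goblet-like class (7.63 against 48.0, ratio 6.29) and in the crypt-like class (34.7 against 82.3, ratio 2.37). Within the classes, 5 of 12 heat shock genes in the enterocyte-like, 4 of 12 in the crypt-like and 5 of 11 in the goblet-like class were at least 1.5-fold higher, where 4.11%, 3.25% and 4.26% of all genes counted were.

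The promoters of the Hspa1b and Hsph1 genes, which were higher, and of Hspe1, which was not, are shown because all 3 hold the heat shock element. Each runs from 250 bases before to 50 after the start of the gene (RefSeq, GRCm38.p6), and capitals mark every match to GAANNTTC or TTCNNGAA, which may overlap.
Hspa1b, chr17:34959189-34959488, minus strand: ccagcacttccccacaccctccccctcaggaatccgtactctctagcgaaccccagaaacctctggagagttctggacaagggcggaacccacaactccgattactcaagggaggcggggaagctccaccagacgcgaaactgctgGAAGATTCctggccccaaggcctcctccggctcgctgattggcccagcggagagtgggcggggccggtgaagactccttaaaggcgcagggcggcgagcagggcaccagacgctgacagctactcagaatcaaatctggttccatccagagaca
Hsph1, chr5:149636266-149636565, minus strand: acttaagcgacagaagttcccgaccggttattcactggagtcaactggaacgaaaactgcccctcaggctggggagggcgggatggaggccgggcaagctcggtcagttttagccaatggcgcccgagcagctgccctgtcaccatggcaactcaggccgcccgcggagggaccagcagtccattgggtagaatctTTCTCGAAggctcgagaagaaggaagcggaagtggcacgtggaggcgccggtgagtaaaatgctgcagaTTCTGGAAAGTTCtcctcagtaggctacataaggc
Hspe1, chr1:55087898-55088197, plus strand: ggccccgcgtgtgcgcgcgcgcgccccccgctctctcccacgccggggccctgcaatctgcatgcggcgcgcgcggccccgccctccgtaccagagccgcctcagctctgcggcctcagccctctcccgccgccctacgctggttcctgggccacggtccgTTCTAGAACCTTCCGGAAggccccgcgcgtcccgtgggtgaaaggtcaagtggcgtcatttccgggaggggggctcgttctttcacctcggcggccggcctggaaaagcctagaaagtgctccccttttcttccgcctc
The Hspa1b window had 1 match, and the Hsph1 and Hspe1 windows 3 each. The Hspa1a window was the same as that of Hspa1b at 296 of 300 bases, and the genes are near copies, so the split of reads between them is uncertain. Of 9 heat shock genes with a promoter in the table and kept, 7 held a match, while 14.1% of the 6724 kept genes with a promoter did. Over the genes at least 1.5-fold higher, 28 of 152 (18.4%) held one, and over those lower 21 of 147 (14.3%). A match is a sequence only. The window of Hspd1 that faces Hspe1 overlaps the Hspe1 window on the other strand. Its 3 matches are the same bases, and both genes count among the 7.

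The pi class of glutathione S-transferases stood out among the genes that conjugate drugs to glutathione. Gstp1 (chromosome 19, 4035407 to 4037985) was at 57.7, 215 and 218, a ratio of 3.77 (3.57 to 3.98), with B + A 0 and B + A 10 at the same level. Its neighbour Gstp2 (4040285 to 4046023) was at 21.4, 34.0 and 41.2, a ratio of 1.92 (1.74 to 2.13). Gstp1 was higher in every class with enough UMIs: 3.91-fold in enterocyte-like, 3.61-fold in crypt-like, 3.68-fold in goblet-like and 3.24-fold in T cell-like cells. Their coding sequences are closely related, and reads may be shared. Gstm2 and Gstm6, of the mu class, were at 22.99, 19.7 and 38.45 and at 13.5, 14.0 and 20.9, so they were higher in B + A 10 and not in B + A 0. In all, 4 of 26 glutathione genes were higher and none was lower, with a median ratio of 0.984. Mgst1, a membrane-bound transferase, was at 735, 554 and 514.

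Among phase I and II enzymes, 3 of 30 P450, Ugt, carboxylesterase and sulfotransferase genes were higher. Cyp1a1, the P450 induced through the aryl hydrocarbon receptor, was at 3.00, 6.57 and 21.4, a ratio of 7.16 (5.74 to 8.998), and its UMIs in B + A 10 lay mostly in the enterocyte-like class (381 of 445). Cyp3a11, a major drug-metabolising P450, was at 21.2, 30.7 and 35.1, and Cyp2d26 at 40.1, 45.4 and 60.4. Cyp1a1 stayed past 1.5-fold under every alternative tried. Cyp3a11 and Cyp2d26 did not, with lowest log2 ratios of 0.43 and 0.28, and with clusters weighted to AOS 0 the list had 1 higher and 3 lower genes. With means over cells it had 1 higher.

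The p53 targets and DNA repair genes that were kept gave little difference. Of 30 p53 targets listed 16 were kept, and of 28 DNA repair and crosslink genes 9. Of 16 p53 targets kept, Zmat3 (5.50, 5.87 and 9.97, ratio 1.81, 1.48 to 2.23) and Pmaip1, the proapoptotic Noxa (21.3, 21.8 and 34.1, ratio 1.601, 1.44 to 1.78), were higher and none was lower. Both were near AOS 0 in B + A 0. The median ratio of the list was 0.861, and Ccng1, a strong p53 target, was at 31.5, 26.0 and 22.8. None of 9 DNA repair and crosslink genes passed 1.5-fold, with Fancl the lowest at 0.679 and Rpa1 the highest at 0.996. With genes of 100 or more UMIs, 1 DNA repair gene was lower, and 2 p53 targets were higher and 2 lower.

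Part of the mitotic genes were lower. Of 35 G2 and mitosis genes, 7 were at least 1.5-fold lower and none was higher, with a median ratio of 0.751. Hmmr, a spindle protein, was at 18.9, 12.99 and 11.6 (ratio 0.616, 0.528 to 0.715), Cdc20, which activates the anaphase-promoting complex, at 69.7, 52.3 and 43.5, and Ube2c, its ubiquitin-conjugating partner, at 148, 118 and 97.9. The count depended on the processing. It was 2 with the median ratio set to 1, 4 when scaled without ribosomal, defensin and haemoglobin genes, and 10 with all cells. None was lower after the cell classes of B + A 10 were weighted to those of AOS 0, and the median log2 ratio went from −0.41 to −0.28, or to −0.05 with single clusters weighted. Within the crypt-like class 3 of 37 were lower, with a median ratio of 0.760 beside 0.932 over all genes counted there. DNA replication genes were closer to AOS 0, with 1 of 32 lower (Prim1, a primase subunit, at 16.1, 13.2 and 10.3), none higher and a median ratio of 0.911. Hells, a chromatin remodeller of S phase, was at 44.5, 53.4 and 58.1.

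Hist1h2ao had the highest ratio of the histone genes kept. This H2A gene (chromosome 13, 21810465 to 21810944) was at 22.7, 177 and 127, a ratio of 5.59 (5.16 to 6.08). Its crypt-like level was 52.8, 415 and 317 and its T cell-like level 31.7, 289 and 258. It was the 1 of 13 histone genes past 1.5-fold, with a list median of 0.826, but the count depended on the UMI limit: with genes of 100 or more UMIs, 7 histone genes were higher and the median log2 ratio was 0.09 in place of −0.28. In the crypt-like class, where the limit was 100 UMIs, 5 of 23 histone genes were higher and 1 lower. Hist1h1b was at 15.9, 10.3 and 10.6 and Hist1h2ae at 19.1, 15.3 and 21.9. H2A genes of this cluster are near-identical, so a count of 1 of them is uncertain. Hmga1, a chromatin protein of dividing cells, was at 5.90, 16.1 and 17.1 with a ratio of 2.89 (2.42 to 3.46), and 2510039O18Rik at 4.49, 12.2 and 13.5 with a ratio of 3.00 (2.45 to 3.69).

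Stem cell and fate genes lay near the untreated level. Of 20 intestinal stem cell genes, Msi1, an RNA-binding protein of progenitors, was higher at 7.06, 8.29 and 11.03 and none was lower, with a median ratio of 1.03. Olfm4, the abundant stem cell marker, was at 761, 824 and 702. Among 17 Notch and secretory fate genes, the receptor gene Notch2 was higher at 6.73, 8.20 and 10.1 and Creb3l4 was lower at 18.7, 17.9 and 12.4. Creb3l4 was within 1.5-fold under 4 of 9 alternatives and Notch2 under 3. Of 21 enterocyte transcription factors, Tcf7l2, the main effector of Wnt signals, was higher at 79.3, 90.2 and 128 (ratio 1.61, 1.53 to 1.71), and none was lower. Cdx2, which sets intestinal identity, was at 125, 98.4 and 85.5, a ratio of 0.685.

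Cholesterol synthesis genes were lower in both busulfan libraries. Sterol regulatory element binding protein turns these genes on when membrane sterol is low, and they code for the steps from acetyl-CoA to cholesterol. Of 24 members kept, 8 were at least 1.5-fold lower and none was higher, with a median ratio of 0.777. The lower count was 5 with the median ratio set to 1 and also 5 with clusters weighted to AOS 0. It was 7 to 9 under the other alternatives. Hmgcs1, the enzyme ahead of HMG-CoA reductase, was at 159, 102 and 94.5 (ratio 0.594, 0.564 to 0.626). Fdft1, the squalene synthase, was at 61.6, 42.3 and 36.2, Sqle, the squalene epoxidase, at 63.3, 44.6 and 37.3, and Msmo1 at 104, 69.1 and 64.0. Mvd, which makes isopentenyl diphosphate, was at 30.4, 21.7 and 19.7 and Fdps, the farnesyl diphosphate synthase, at 221, 182 and 146.

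The lower sterol genes were found in each epithelial class. At least 1.5-fold lower were 6 of 24 members counted in the enterocyte-like, 10 of 25 in the crypt-like and 11 of 23 in the goblet-like class, where 3.00%, 4.04% and 4.06% of all genes counted were. Hmgcs1 had ratios of 0.608, 0.572 and 0.542 in these classes and 0.480 (0.324 to 0.700) in the T cell-like class. The Hmgcs1 promoter is shown for its sterol element, in capitals, the only match to CACCCCAC on either strand from 250 bases before to 50 after the start.
Hmgcs1, chr13:119690101-119690400, plus strand: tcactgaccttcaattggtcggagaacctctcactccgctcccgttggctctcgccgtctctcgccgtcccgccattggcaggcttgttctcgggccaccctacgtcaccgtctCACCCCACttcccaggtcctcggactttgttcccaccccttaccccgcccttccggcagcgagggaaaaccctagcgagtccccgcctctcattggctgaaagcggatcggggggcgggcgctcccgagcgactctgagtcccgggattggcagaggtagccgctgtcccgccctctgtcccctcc
This motif was in 2 of 16 cholesterol genes kept and with a promoter listed, Hmgcs1 and Acat2, and in 3.73% of kept genes with a promoter. Acat2 had a ratio of 0.844.

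Other lipid genes were closer to AOS 0. Of 22 fatty acid oxidation and ketone genes, Cpt1a, which brings fatty acids into mitochondria, was lower at 57.5, 36.6 and 34.3 and none was higher. Of 24 fat absorption genes 3 were higher and none lower. Apoc2, the cofactor of lipoprotein lipase, was at 3.00, 19.3 and 12.4 (ratio 4.13, 3.26 to 5.27), the fatty acid receptor gene Cd36 at 9.57, 11.3 and 18.9, and Clps is given above. Apoa1 was at 4795, 5045 and 5807. Slc10a2, the ileal bile acid importer, was at 50.1, 40.7 and 31.4, the only 1 of 7 ileal bile acid genes past 1.5-fold.

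Some absorptive genes of the villus were higher in B + A 10 than in either other library. Of 17 amino acid and peptide transporters, 5 were higher and none lower, with a median ratio of 1.27. Slc15a1, the peptide transporter PepT1, was at 56.5, 82.1 and 158 (ratio 2.79, 2.64 to 2.96), with ratios of 2.46 in the enterocyte-like, 3.90 in the crypt-like and 4.15 in the goblet-like class. The part of free RNA in the ratios outside the enterocyte-like class was not tested. Slc36a1, Slc43a2, Slc7a8 and Slc7a15, carriers of amino acids, had ratios from 1.5004 to 1.66. In the sugar list 3 of 17 were higher: Pck1, of gluconeogenesis, at 8.99, 11.5 and 16.8, Slc5a12 at 15.8, 15.5 and 24.7, and the fructose and glucose exit carrier Slc2a2 at 18.4, 20.2 and 28.0. Among 18 brush border enzymes 3 were higher, namely Lct, the lactase (85.6, 111 and 145), Enpp7 (18.4, 22.4 and 30.1) and Ace (46.4, 51.6 and 71.3), and Sis, the sucrase, was at 262, 208 and 211. Within the enterocyte-like class, which makes these enzymes, none of 19 was higher (median ratio 1.02), while 8 of 17 were in the crypt-like and 6 of 17 in the goblet-like class. S100g, the calcium carrier calbindin-D9k of the duodenum, was at 266, 456 and 610.4 (ratio 2.30, 2.23 to 2.36). Slc4a7, a bicarbonate carrier, and Aqp3, an aquaglyceroporin, were the 2 of 20 ion and guanylin genes that were higher, and 1 of 23 microvillus genes, Tmigd1, was lower.

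**Figure D3:**
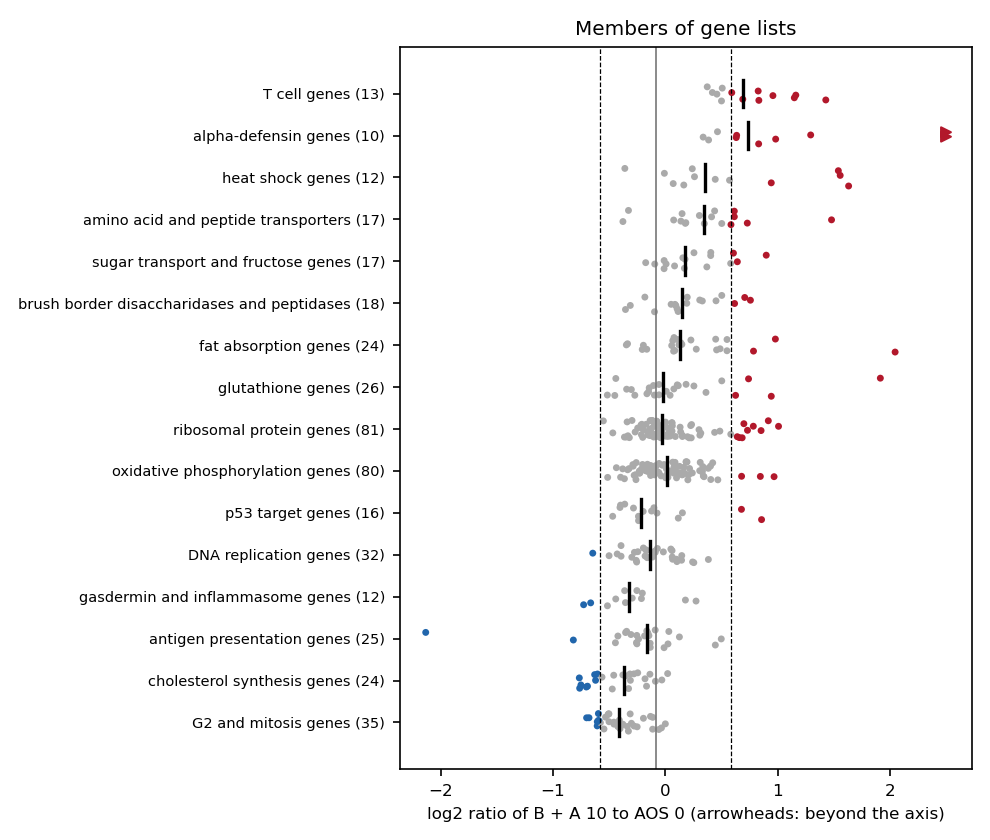
Log2 ratio of B + A 10 to AOS 0 for each kept member (points, numbers in parentheses) of 16 gene lists, with list medians as bars, 1.5-fold as dashed lines the median of all genes as a grey line and arrowheads for members beyond the axis. T cell, heat shock and amino acid transporter genes lie to the right, and cholesterol and mitosis genes to the left. Defensin genes also lie to the right, but their sum decided which cells were left out. Defa21 and Defa22 were kept through B + A 10 alone.

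The absorptive counts depended on cell mix. With single clusters of B + A 10 weighted to their shares in AOS 0, 2 amino acid transporters were higher in place of 5 and 1 brush border gene in place of 3, and the log2 ratio of Slc2a2 was 0.21 in place of 0.61 and that of S100g 0.48 in place of 1.20. The ratio of Slc15a1 stayed past 1.5-fold under every alternative tried, with log2 ratios from 1.30 to 1.56.

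T cell genes were higher. Of 13 members kept, 8 were at least 1.5-fold higher and none lower, with a median ratio of 1.61. Ccl5, a chemokine of cytotoxic T cells, was at 261, 467 and 702 (ratio 2.69, 2.62 to 2.77). The receptor subunit genes Cd3e and Cd3d were at 13.3, 20.4 and 29.8 and at 11.8, 17.0 and 26.1, and Cd8a, the coreceptor of most of these cells, at 12.1, 16.9 and 21.5. Gzma, a granzyme, was at 334, 379 and 540. B + A 0 lay between the other libraries for each of these.

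Where the T cell UMIs lay differed between libraries. Within the T cell-like class the list summed to 32750 UMIs per 1000000 of the class in AOS 0 and 29170 in B + A 10, and Ccl5 had a ratio of 1.14 (1.10 to 1.18), Cd3e of 0.934 (0.789 to 1.11) and Cd3g of 0.639 (0.566 to 0.721). In enterocyte-like cells, which should lack them, the list summed to 194.5 and 841.9, in crypt-like cells to 165.4 and 698.5 and in goblet-like cells to 182.6 and 800.7. Of all UMIs of these genes, 27.1% in AOS 0 and 51.3% in B + A 10 lay outside the T cell-like class. Within each library the sums were alike in these classes that should lack the genes, so the T cell values over all cells are not those of T cells alone. No doublets (droplets with several cells) were removed. The parts of free RNA and of doublets in these values were not tested. Cells with a Ccl5 UMI after thinning were 8.26% (7.42% to 9.15%) of AOS 0 and 34.0% (32.7% to 35.3%) of B + A 10.

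Interferon and inflammasome genes split. Of 34 interferon stimulated genes 3 were higher, 2 lower, and the median ratio was 0.989. Ifi27l2b was at 842, 418 and 1952, higher than AOS 0 in B + A 10 (ratio 2.32, 2.28 to 2.35) and lower in B + A 0, and the same order held in each class, with ratios of B + A 10 to AOS 0 from 2.02 in crypt-like to 2.91 in enteroendocrine-like cells. Rsad2, an antiviral enzyme, was at 67.0, 52.9 and 114, and Oas1a, which senses double-stranded RNA, at 52.2, 87.7 and 89.0. Ifit2 was lower at 37.7, 20.96 and 23.6. Of 12 gasdermin and inflammasome genes, Casp1, the protease that cleaves gasdermin D, was lower at 159, 116 and 96.3 (ratio 0.604, 0.574 to 0.636) and Gsdmc2 at 24.7, 16.9 and 15.6, and none was higher.

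Hormone genes rested on few cells. Of 11 kept, Ghrl and Nts were higher and Sst and Gcg lower. Ghrl, ghrelin, was at 94.8, 29.7 and 224, with 1 cell holding 29.2% of its UMIs in AOS 0 and 40.3% in B + A 10. Sst, somatostatin, was at 37.1, 2.79 and 13.9, with 1 cell holding 72.1% and 44.1%. Gcg, the glucagon precursor of L cells, was at 96.9, 18.7 and 51.4, with 1 cell of B + A 10 holding 26.1%, and Nts, neurotensin, at 143, 281 and 237, with 1 cell of AOS 0 holding 36.2%. The enteroendocrine-like class held 68 cells of AOS 0 and 63 of B + A 10, so these ratios rest on few cells. Outside it the genes were also seen: 5 of 7 hormone genes were higher in the enterocyte-like class, which should lack them, and after thinning 31 cells of AOS 0 and 147 of B + A 10 had a Ghrl UMI. Haemoglobin, a sign of red blood cells, came almost all from 1 cell: Hba-a1 was at 0.581, 31.8 and 23.4 and Hbb-b1 at 1.04, 37.5 and 23.3, with 94.6% and 90.9% of the B + A 10 UMIs in 1 cell.

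Secretory stress genes gave both directions. Hyou1, a chaperone of the endoplasmic reticulum, was at 18.3, 25.3 and 41.7 (ratio 2.28, 2.05 to 2.54), and Dnajb9, a J-domain cochaperone of the same compartment, at 28.3, 39.5 and 44.9. Pdia3, a disulfide isomerase of that compartment, was lower at 424, 338 and 261 (ratio 0.616, 0.597 to 0.635). Over 25 unfolded protein response genes, 2 were higher and 1 lower, with a median ratio of 1.06. In the redox list Sod1, the cytosolic superoxide dismutase, was higher at 168, 220 and 265 and Nos2 at 4.86, 5.91 and 7.52, while Prdx4 was lower at 72.5, 63.1 and 48.3. Prdx4 was within 1.5-fold under 6 of 9 alternatives and Nos2 under 2.

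A few ribosomal protein genes stood above the rest of the list. The median ratio over 81 genes was 0.979, 9 were at least 1.5-fold higher and none lower. Rps28 was at 1517, 2239 and 3053 (ratio 2.01, 1.99 to 2.04), Rps29 at 2493, 3581 and 4710.4, and Rpl38 at 1212, 1649.9 and 2189. All 3 encode very small subunits, and B + A 0 lay between the other libraries for each. Rps28 had ratios of 1.92, 2.205 and 1.89 in enterocyte-like, crypt-like and goblet-like cells and 2.07 in T cell-like cells. The same order was seen in 3 of 80 oxidative phosphorylation genes, Atp5k (588, 744 and 1150.3), Cox7a1 (235, 298 and 423) and Ndufa3 (379, 445 and 608), which also encode small subunits, and the median of that list was 1.01. Libraries with fewer UMIs per cell had the higher levels, and the part of depth in this was not tested.

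Higher and lower genes were spread unevenly over transcript length. In the shortest of 5 equal groups of 8335 genes with a protein-coding transcript in GENCODE M21 (median 747 bases), 3.42% were at least 1.5-fold higher and 2.34% lower, while in the longest group (median 4766 bases) 2.40% were higher and 0.840% lower. The median ratio was 0.929 in the shortest group, 0.886 in the next and 0.999 in the longest.

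Further genes with low ratios were in no list. Stx6, a syntaxin of the trans-Golgi network, was at 50.9, 47.7 and 20.6 (ratio 0.405, 0.363 to 0.451), and was lower in enterocyte-like (0.332), crypt-like (0.549) and goblet-like (0.398) cells. Akr1c19, an aldo-keto reductase, was at 60.4, 42.9 and 27.2 and Akr1e1 at 16.5, 7.96 and 9.20. Hsd17b13 of lipid droplets was at 16.4, 8.80 and 9.64. Cirbp, a cold-inducible RNA-binding protein, was at 20.6, 11.3 and 10.4, opposite in direction to the heat shock genes. Camk1 was at 7.80, 3.68 and 3.47, Bex4 at 7.52, 6.19 and 3.13, Itgb3bp, a kinetochore protein, at 16.5, 9.55 and 7.71, Shcbp1 at 8.38, 6.05 and 4.10, Fam69a at 15.2, 10.6 and 7.56, and Prss23 at 22.4, 15.04 and 11.2. Ceacam2 (chromosome 7) was higher in both busulfan libraries, at 3.79, 25.1 and 10.3, while its neighbour Ceacam1 had a ratio of 0.636.

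Some genes past 1.5-fold lay next to each other. Of 380 with a place in GENCODE M21, 36 had an adjacent kept gene within 100000 bases that was also past 1.5-fold, in 16 runs. Such neighbours were past 1.5-fold in 9.76% of cases beside a gene past it and in 4.14% of cases beside one that was not. The runs included H2-T23, H2-T22 and H2-Bl, Gstp1 and Gstp2, Hspa1a and Hspa1b, Cd3d and Cd3e, Oas1a and Oas1g, and Bex4, Tceal8 and Bex1 on the X chromosome. Defensins were also among the runs, but their sum decided which cells were left out. Many of the runs are families of like sequence.

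Genes that the study followed by protein assay, regulon analysis or knockdown were near the untreated level in RNA. Of 17 chosen, 16 were in the table, 12 were kept and none of these passed 1.5-fold. Gja1 was not analysed here. Casp8, the initiator caspase, was at 98.9, 96.2 and 112. Vil1, villin, was at 500.2, 478 and 531 and Dsg2, desmoglein 2, at 125, 121 and 144 (ratio 1.15, 1.10 to 1.21). Hmgb1 was at 755, 811 and 808 and Apoa1 is given above. The junction gene F11r had a ratio of 0.892 (0.843 to 0.945), and the transcription factors Sox4, Klf7, Gata4, Atf5 and Zbtb1 ratios of 0.852, 0.883, 1.06, 0.993 and 0.936. Under the limit of 300 UMIs were Bcl2 (3.76, 4.24 and 4.19), Sp2 (5.01, 5.82 and 6.26), Mrc1 with 5 and 4 UMIs and Gja4 with 0 and 3.

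**Figure D4:**
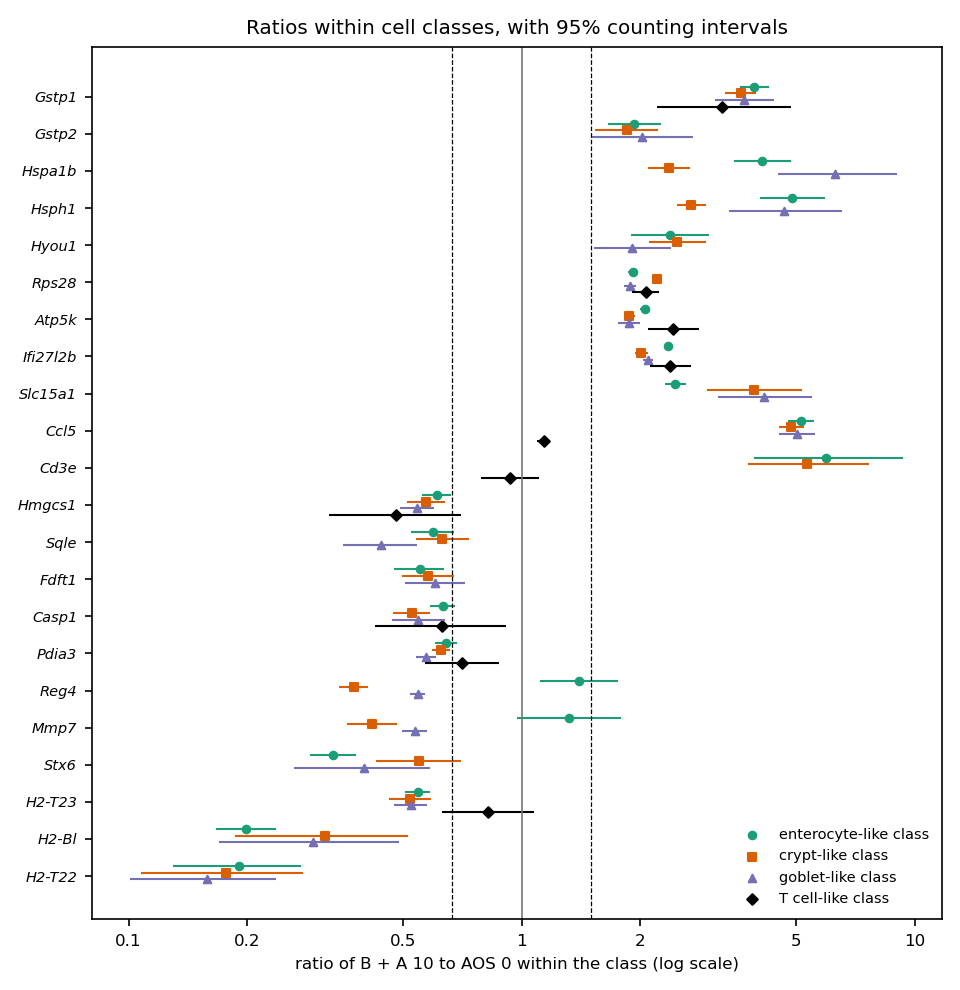
Ratio of B + A 10 to AOS 0 (log axis) of 22 genes within 4 classes of cells, with 95% counting intervals as lines and 1.5-fold as dashed lines, where a gene and class had 100 or more UMIs. Gstp1, Rps28, Atp5k and Ifi27l2b are higher in all 4 classes, Hmgcs1 and Casp1 are lower in all 4, and Ccl5 and Cd3e are about 5-fold higher outside the T cell-like class and near 1 within it.

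The remaining lists held few members past 1.5-fold. Of 28 junction genes, Pkp2, a desmosome plaque protein, was lower at 21.9, 16.9 and 14.2. Of 15 immediate early genes, Dusp1 was higher at 5.23, 7.26 and 7.85, but was within 1.5-fold under 6 of 9 alternatives. No member passed it among 15 metallothionein and zinc transporter genes, 12 retinol genes and the 1 tuft cell gene kept, Ltc4s. Among 10 iron and calcium genes S100g was the only one.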

How the data were processed

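Cells of the small intestine were measured with the 10x 3′ v2 droplet kit in 3 libraries, 1 per group. Per the labels and the study's methods, the authors ran Cell Ranger 2.2.0 on mm10 with the number of cells forced to 5000, removed cells with under 200 genes and genes in under 3 cells, and deposited each value as the natural log of 1 plus UMIs per 10000 UMIs of the cell. Each value was turned back to whole UMIs (tolerance 0.01, 100% of values above 0). The libraries held 4106 cells (AOS 0), 3195 cells (B + A 0) and 5352 cells (B + A 10), of which 109, 189 and 191 were left out for alpha-defensins (highest sum kept 1442 and lowest left out 1520 in AOS 0, 1471 and 1511 in B + A 10). Between AOS 0 and B + A 10, 34 barcodes were shared. No doublets were removed.

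UMIs used (21473238 in B + A 0) were scaled per 1000000. Ratios have exact Clopper-Pearson 95% intervals, which cover counting error only, and with 1 library per group no test was made. Cells were clustered on 2000 variable genes (20 components, 20 neighbours, Leiden at resolution 1, seed 1, igraph 0.11.9) and put in classes by fixed markers, and scoring details were set with the data in view, so class values rest on rebuilt names. Clusters that failed the marker rule stayed unnamed (345 and 396 cells of AOS 0 and B + A 10). Thinned shares come from 1000 UMIs drawn per cell. Python 3.11.15, numpy 2.4.6, scipy 1.17.1, pandas 2.3.3 and scikit-learn 1.9.0 were used, and the scripts were tested on simulated counts. Positions come from GENCODE M21 (GRCm38) and promoters from RefSeq (GRCm38.p6, 6724 of 8580 genes matched).

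The comparison, its gene lists and the rules were chosen with earlier results of these data known. Named were the 15 highest and 15 lowest ratios, the 10 at each end by the ratio nearer to 1 in the 2 busulfan libraries, up to 3 members at each end of a list, genes of the study's protein assays, regulons and knockdown, and any gene with over 20% of its UMIs in 1 cell with that share. Further members past 1.5-fold, such as Hspa8, Cd8a, Gzma, Msmo1, Ube2c and Defa30, and the neighbours of named genes were added after their values were seen. Some list members that count in the totals are not reported here by name. Alternatives were other cell and gene filters, scalings and weightings. The column names of the file match the titles.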

Additional observations from a re-analysis of the deposited data

Results flagged for a closer look

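These results were picked out because the log2 ratio of B + A 10 to AOS 0 had opposite signs in 2 classes of cells, each past 1.5-fold with an interval that leaves out 1. The difference between classes was not tested in any of them. The crypt-like class includes a cluster led by Reg4 and Ccl9, genes of secretory cells, and its part in the crypt-like ratios was not tested. Agr2, which goblet cells need to fold mucin, had a log2 ratio of 0.78 in the enterocyte-like class and −0.93 in the crypt-like class. Klk1, a kallikrein protease, was at 0.90 in the enterocyte-like, −0.70 in the crypt-like and −0.59 in the goblet-like class. The T cell receptor gene Cd3g was at 1.69 in the enterocyte-like and 1.88 in the crypt-like class and at −0.64 in the T cell-like class. Fcer1g, a signalling chain of Fc receptors, was at 1.75 in the enterocyte-like and 1.61 in the crypt-like class and at −0.79 in the T cell-like class. The defensin gene Defa29 was at 0.59 in the crypt-like and −0.73 in the T cell-like class. Sst was at 4.84 in the crypt-like and −9.66 in the enteroendocrine-like class, and 1 cell held 72.1% of its UMIs in AOS 0 and 44.1% in B + A 10.

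The cells left out for alpha-defensins are outside the main measurement. In those of B + A 10, Defa21 had 5618, Defa22 had 6144 and Gm7849 had 8057 UMIs per 1000000, while in those of AOS 0 they had 1.18, 22.3 and 1.96, and in those of B + A 0 they had 2.19, 71.1 and 3.06.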

How the results depend on the processing

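Against 211 higher and 186 lower genes, the counts were 359 and 334 with genes of 100 or more UMIs, 116 and 86 with genes of 1000 or more UMIs, and 295 and 103 with the median ratio set to 1, which shifts all log2 ratios by 0.08. The first 2 of these test more or fewer genes by construction. The other alternatives gave 183 to 219 higher and 148 to 227 lower genes. These kept all cells, left out defensin sums of 500 or more or the highest 5% of UMIs, took cells with 500 or more genes, scaled without ribosomal, defensin and haemoglobin genes, averaged over cells, or weighted cell classes or single clusters to AOS 0. Weighting by clusters was chosen after seeing the data. The log2 ratio of Clps reversed to −0.1579 when no cell was left out, and the cause was not tested. Of 98 named genes past 1.5-fold, 25 were no longer past it with clusters weighted, 16 with means over cells, 14 with classes weighted, and 8 or fewer under each other alternative run on named genes. T cell genes went from 8 higher to 3 with means over cells. No paired analysis was possible because the labels carry no replicate numbers and each group is 1 library. Depth limits genes near 300 UMIs to an interval of 0.788 to 1.26 times the ratio, and the spread between mice cannot be given.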

Other observations

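In the defensin-rich cells left out of the comparison, other Paneth cell products were lower in B + A 10 than in AOS 0. Itln1, an intelectin, had a ratio of 0.539, Lyz1, the Paneth cell lysozyme, 0.521, Ang4, an angiogenin with antimicrobial action, 0.536, and Mmp7, which activates alpha-defensins, 0.582. Defa20 had 2.35, 3.94 and 1163 UMIs per 1000000 of those cells in AOS 0, busulfan alone and B + A 10. These ratios come from 109 cells of AOS 0 and 191 of B + A 10 and have no replicate check.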
